A study of Homo sapiens with 6 samples.

Results

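The genes described here are 31 genes of DNA replication and of the passage from G1 into S phase, chosen by their symbols. The choice was made with earlier results of these data known. Each symbol matched a single row of the deposited table, so that the group is 31 of the 60605 genes listed (40591 of them with a symbol) and 31 of the 12829 genes tested. The samples were RNA sequencing libraries of Huh-7, a hepatoma line of human origin, with 3 libraries of cells given pectolinarigenin (100 µM, 24 h), a plant flavone, and 3 control libraries of cells given DMSO without it (0 µM). Cells of both groups had first been made rich in lipid with oleic acid (100 µM, 24 h) and had then been starved. All results are therefore from a single tumour cell line already exposed to oleic acid, and no lipid-free group is among the samples. Separate cultures are not stated for the libraries of a group, so the p-values below reflect the variation among these libraries, and that variation may be technical.

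Replication is prepared in G1, when CDC6 and CDT1 help the origin recognition complex to load the MCM2-7 ring, the core of the replicative helicase, onto DNA. In S phase CDC45 and the GINS complex join the ring and activate it, polymerases copy the strands behind it, the RFC clamp loader places the sliding clamp PCNA on DNA, and FEN1 and LIG1 finish the lagging strand. Ribonucleotide reductase and thymidylate synthase supply the deoxynucleotides, and the E2F transcription factors, released when cyclin-dependent kinases phosphorylate RB, switch on most of these genes as a cell leaves G1.

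Of the 31 replication genes, 21 were lower in pectolinarigenin cells, 1 was higher and 9 did not pass the test (edgeR's quasi-likelihood test with Benjamini-Hochberg adjustment over all tested genes, threshold 0.05). The background was high, since 25.3% of all tested genes were called lower and 25.3% higher. The median log2 fold change, pectolinarigenin over control, was -0.25 over the 31 genes (0.838-fold) and 0.00071 over all tested genes. Most changes were moderate. A log2 fold change below -0.5 was found for 10 of the 31 genes, against 11.04% of all tested genes, and E2F2 alone passed a 2-fold change. In FPKM, the authors' length-scaled level, the pectolinarigenin libraries lay entirely below the control libraries for 19 of the genes, entirely above them for 3, and overlapped them for 9. Over all tested genes, 25.4% lay entirely below and 33.5% entirely above. FPKM values do not carry the library scaling (TMM) factors of the test. The median log2 fold change of all tested genes was 0.030 in log2(FPKM + 1). Statements on overlap below refer to FPKM unless another scale is named. In a bulk RNA sample, fewer cells in S phase and less RNA of these genes per cell cannot be told apart.

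The roles had different medians, on the log2 scale. They were -0.57 for the MCM2-7 subunits, -0.46 for nucleotide supply and -0.42 for cyclin E and E2F. Helicase activation had -0.29, the polymerases -0.23, the licensing factors -0.21 and chromatin duplication -0.10. Flap and nick processing had -0.056, and the clamp and its loader -0.0082. Each median rests on 2 to 6 genes, and differences between the roles were not tested. The 3 pectolinarigenin libraries had median log2 levels of -0.34, -0.28 and -0.21 relative to the control mean over the 31 genes. All 3 control libraries lay between -0.03 and 0.01, and values near 0 follow from the use of their own mean as reference.

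**Figure D1:**
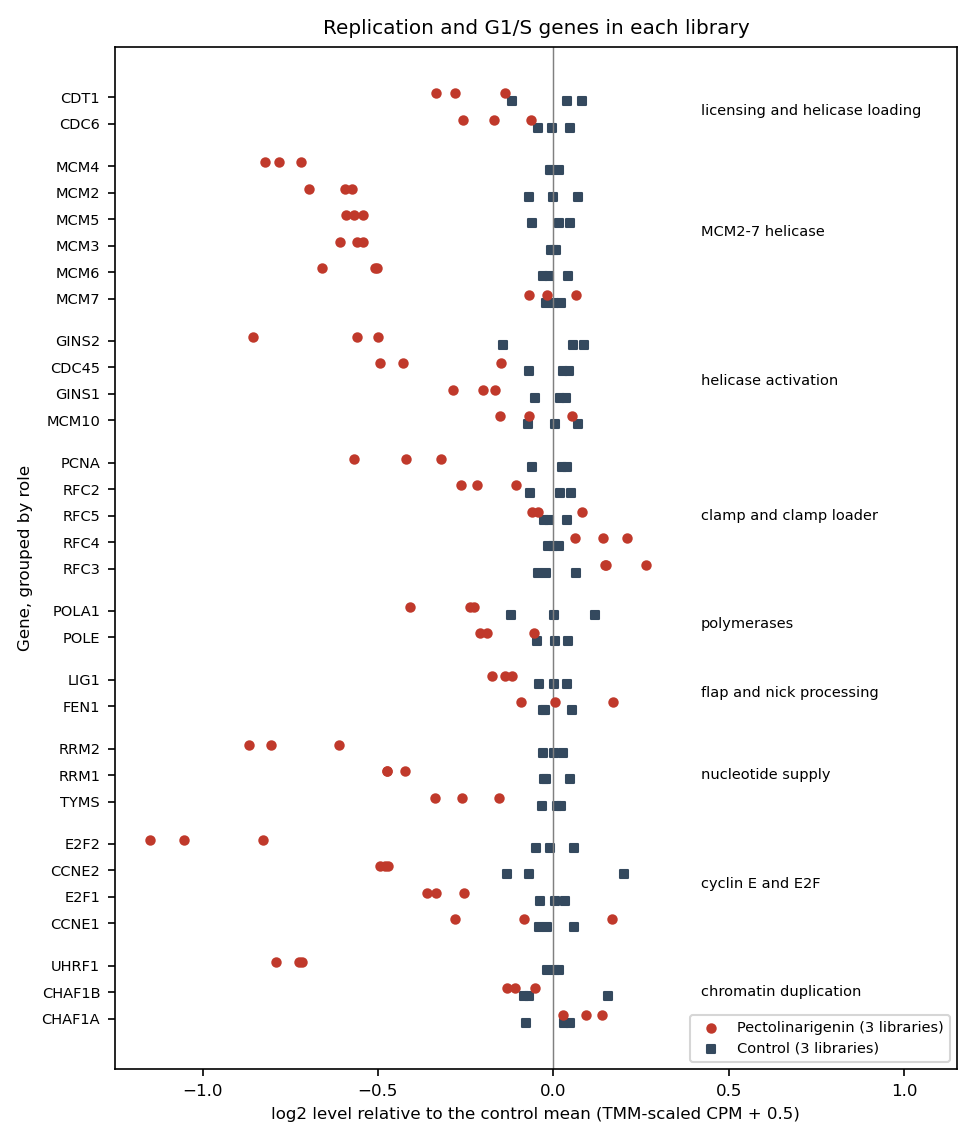
Level of each of the 31 genes in each library, as log2 TMM-scaled CPM, the counts scaled to a common library total (plus 0.5), relative to the mean of the control libraries, with the genes grouped by role. Circles are the 3 pectolinarigenin libraries and squares the 3 control libraries; the circles of MCM2 to MCM6, RRM1, RRM2, E2F2 and UHRF1 stand clear to the left of their squares, while those of MCM7, RFC5 and MCM10 lie among them.

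Total counts were 16054283 to 20311261 in the pectolinarigenin libraries and 15140022 to 18652800 in the control libraries. Pectolinarigenin library 3 stood apart from the other pectolinarigenin libraries on the second principal component (8.26% of the variance). The 8 hepatocyte markers examined (such as albumin and transferrin) were detected, summing to 8851 to 9624 FPKM in pectolinarigenin libraries and 12196 to 12392 FPKM in control libraries, with 7 of the 8 called lower. The part of that difference in the replication results was not tested. Of all tested genes, 25.3% were called lower. Among the 7 markers called lower, APOB lost its call in 11 and TTR in 10 of 17 alternative settings. Of the markers of other cell types, 5 fibroblast genes summed to 0.13 to 0.29 FPKM in pectolinarigenin libraries and 0.24 to 0.38 FPKM in control libraries. The endothelial markers without PECAM1 summed to at most 0.02 FPKM in pectolinarigenin libraries and 0.04 FPKM in control libraries, and the leukocyte markers without LYZ to at most 0.29 FPKM in pectolinarigenin libraries and 0.31 FPKM in control libraries. PECAM1 and LYZ belong to these marker lists but were left out of the sums just given. With PECAM1, which was called lower, the endothelial sums were 1.16 to 1.37 FPKM in pectolinarigenin libraries and 2.32 to 2.63 FPKM in control libraries. With LYZ, which was called higher, the leukocyte sums were 52.89 to 76.63 FPKM in pectolinarigenin libraries and 39.55 to 40.08 FPKM in control libraries. LYZ was thus well expressed in every library.

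Promoter sequences were examined because E2F sites are a known shared feature of replication genes. RefSeq promoter windows (GRCh38.p14, 250 bases before to 50 bases after the start) were found for 28 of the 31 genes, and CCNE2, MCM4 and MCM5 had no window. The E2F core was searched on both strands as TTTCCCGC, TTTCGCGC, TTTGCCGC or TTTGGCGC. For each gene symbol only the first listed window was used. At least 1 of these forms was found in 17 of the 28 windows (60.7%). The share was 3.33% of the 27305 windows of all genes and 5.67% of the 8979 windows of tested genes. When any listed start of a gene counted, 3.99% of all genes and 17 of the 28 had a form. The CCAAT box (CCAAT, both strands) was present in 17 of the 28 windows (60.7%) and in 35.7% of all windows. The GC box (GGGCGG, both strands) was present in 21 of the 28 (75%) and in 44.6% of all windows, and in 70.7% of those of tested genes. The sequences below, read 5′ to 3′ on the strand of the gene with the E2F forms of either strand in capitals, are shown for genes called lower, by small and by larger amounts, in several roles, and for MCM7 and RFC3, which were not called lower.
MCM6 (chr2:135876502-135876615, minus strand): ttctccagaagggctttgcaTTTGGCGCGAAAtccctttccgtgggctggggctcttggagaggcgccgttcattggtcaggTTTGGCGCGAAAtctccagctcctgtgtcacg
MCM3 (chr6:52284889-52284936, minus strand): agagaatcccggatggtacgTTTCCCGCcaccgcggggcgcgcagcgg
E2F2 (chr1:23531248-23531295, minus strand): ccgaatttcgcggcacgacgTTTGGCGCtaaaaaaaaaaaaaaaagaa
PCNA (chr20:5126654-5126701, minus strand): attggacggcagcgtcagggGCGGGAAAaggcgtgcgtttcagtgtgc
E2F1 (chr20:33686394-33686423, minus strand): ctttcGCGGCAAAaaggaTTTGGCGCgtaa
GINS2 (chr16:85688967-85688996, minus strand): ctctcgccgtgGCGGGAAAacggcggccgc
UHRF1 (chr19:4909471-4909500, plus strand): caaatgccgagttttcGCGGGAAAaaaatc
MCM7 (chr7:100101566-100101595, minus strand): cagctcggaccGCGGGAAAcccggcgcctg
RFC3 (chr13:33818083-33818112, plus strand): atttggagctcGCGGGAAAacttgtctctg

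In the MCM6 window the 4 matches formed 2 identical blocks, each holding 1 form per strand that overlap. The sequences printed are parts of the windows, and MCM7 and MCM3 each had a further match outside the part printed. Taken with their flanks, the stretches of E2F1, GINS2, UHRF1, MCM7 and RFC3 overlap annotated exons of the same gene. The MCM7 stretch also overlaps an exon of AP4M1. Those of MCM6, MCM3, E2F2 and PCNA overlap none. A window start can thus lie inside the annotated gene, as for UHRF1, which is annotated from chr19:4903080. The MCM7 window held 2 matches although its transcript did not pass the test, and the RFC3 window held 1 although its transcript was higher. The windows of RRM1 and RRM2, both lowered, held none of the forms. Of the 17 genes with a form 14 were called lower (median log2 fold change -0.30), and of the 11 without one 4 were (median -0.05). These figures describe the 28 genes and were not tested. Among tested genes outside the group, the 492 with a form had a median of 0.01 with 23.6% called lower, and the 8459 without one had a median of 0.0075 with 26.9% called lower. A match in the window is a description of the letters and does not show that a factor binds there.

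Both licensing factors were called lower, by small amounts. CDC6, an ATPase that recruits the MCM ring to origins, had 11.3, 10.6 and 11.94 FPKM in pectolinarigenin libraries, against 12.7, 11.93 and 12.3 FPKM in control libraries. CDT1, which escorts the ring to the origin, had 14.1, 16.2 and 14.4 FPKM in pectolinarigenin libraries, against 15.9, 18.3 and 17.8 FPKM in control libraries. In FPKM the groups overlapped for both genes, through pectolinarigenin library 3 for CDC6 and library 2 for CDT1. In TMM-scaled CPM, which uses the scaling of the test, they did not. CDC6 had 58.9, 55.3 and 63.3 CPM in pectolinarigenin libraries, against 68.5, 64.2 and 66.1 CPM in control libraries. CDT1 had 38.2, 43.9 and 39.7 CPM in pectolinarigenin libraries, against 44.5, 51.2 and 49.7 CPM in control libraries. The log2 fold changes were -0.16 (SE 0.064, adjusted p = 0.0473, edgeR) for CDC6 and -0.25 (SE 0.076, adjusted p = 0.0112, edgeR) for CDT1. The CDC6 call was lost without pectolinarigenin library 1 or 2 or without any 1 control library (adjusted p = 0.0716 to 0.186), and the CDT1 call without control library 2 or 3 (adjusted p = 0.0713 and 0.0506).

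Of the 6 subunits of the MCM2-7 helicase, 5 fell together and MCM7 did not. MCM4 had 17.3, 16.1 and 16.3 FPKM in pectolinarigenin libraries, against 27.4, 28.0 and 27.6 FPKM in control libraries. Every pectolinarigenin library was below every control library, and MCM4 showed the largest fall of the subunits, at -0.78 on the log2 scale (SE 0.054, adjusted p = 4.72e-08, edgeR). MCM2 had 24.2, 24.0 and 21.9 FPKM in pectolinarigenin libraries, against 33.2, 36.8 and 35.1 FPKM in control libraries. MCM3 had 46.0, 46.6 and 43.7 FPKM in pectolinarigenin libraries, against 65.9, 65.4 and 66.1 FPKM in control libraries. Neither gene's groups overlapped, and the log2 fold changes were -0.62 (SE 0.059) and -0.57 (SE 0.052). MCM5, the subunit with the lowest level, averaged 6.49 ± 0.17 FPKM in pectolinarigenin cells and 9.41 ± 0.38 FPKM in control cells (SD, n = 3 each). MCM6 averaged 19.4 ± 1.1 FPKM in pectolinarigenin cells and 27.9 ± 0.63 FPKM in control cells (SD, n = 3 each). Both fell, with log2 fold changes of -0.57 (SE 0.060) and -0.56 (SE 0.060), and adjusted p over MCM2, MCM3, MCM5 and MCM6 was at most 2.82e-06 (edgeR).

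MCM7, the remaining subunit of the ring (GRCh38, GENCODE 29, chr7:100092728-100101940), had 77.8, 75.2 and 81.0 FPKM in pectolinarigenin libraries, against 76.1, 77.4 and 75.5 FPKM in control libraries. Its groups overlapped, the log2 fold change was -0.0061 (SE 0.055, adjusted p = 0.936, edgeR), and its sign varied between processing settings. MCM7 was already the most abundant subunit per length, with 31.3% to 31.7% of the summed MCM2-7 FPKM in control libraries. Its share was 40.9%, 39.8% and 42.9% in pectolinarigenin libraries, against 31.7%, 31.6% and 31.3% in control libraries. The shares of the groups did not overlap. The exact 2-sided permutation test gave p = 0.1, the smallest value 3 against 3 libraries allow, so no share could pass the 0.05 threshold. The adjusted p of this test was 0.111 over the 10 subunit shares compared. Shares of the same complex add up to a fixed total, so they are not separate results. The share of MCM4 averaged 8.75% ± 0.30 in pectolinarigenin cells and 11.4% ± 0.0023 in control cells (SD, n = 3 each). The ratio of MCM7 to MCM4 FPKM was 4.496, 4.66 and 4.98 in pectolinarigenin libraries, against 2.77, 2.77 and 2.74 in control libraries. The summed FPKM of the 6 subunits was 189 ± 0.76 in pectolinarigenin cells and 242 ± 2.4 in control cells (SD, n = 3 each), and it was lower in every pectolinarigenin library than in every control library.

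**Figure D2:**
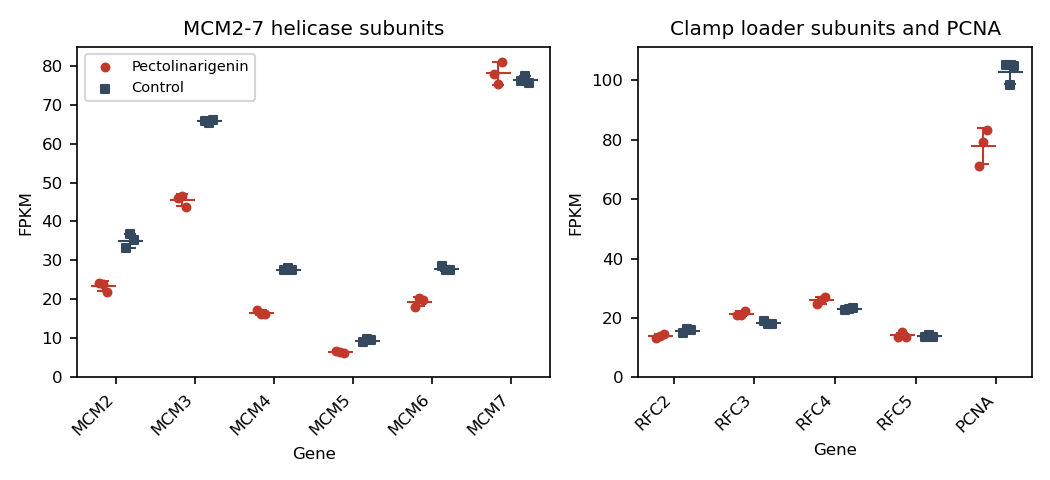
Deposited FPKM of the MCM2-7 subunits (left) and of the RFC2 to RFC5 clamp loader subunits with PCNA (right); points are libraries, circles pectolinarigenin and squares control, and the bars give the mean ± SD of 3 libraries. MCM2 to MCM6 and PCNA sit lower in pectolinarigenin cells, MCM7 averaged 78.0 and 76.4 FPKM in pectolinarigenin and control cells, and RFC3 sits higher in pectolinarigenin cells.

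Of the 4 factors that turn the loaded ring into an active helicase, 3 were called lower. GINS2, a subunit of the GINS complex, had 3.75, 4.86 and 4.57 FPKM in pectolinarigenin libraries, against 6.96, 6.06 and 7.16 FPKM in control libraries. CDC45, the partner of GINS on the ring, had 5.06, 4.84 and 6.08 FPKM in pectolinarigenin libraries, against 6.76, 6.34 and 6.90 FPKM in control libraries. GINS1, another subunit of GINS, had 17.3, 18.9 and 18.1 FPKM in pectolinarigenin libraries, against 19.7, 20.8 and 21.1 FPKM in control libraries. The groups did not overlap for any of these genes, although pectolinarigenin library 3 came close to the control libraries for CDC45. The log2 fold changes were -0.65 for GINS2 (SE 0.11, adjusted p = 0.000155, edgeR), -0.35 for CDC45 (SE 0.10, adjusted p = 0.0097) and -0.22 for GINS1 (SE 0.058, adjusted p = 0.00558). MCM10, which is needed to start unwinding, had 7.09, 6.70 and 7.6 FPKM in pectolinarigenin libraries, against 6.83, 7.24 and 7.6 FPKM in control libraries. Its groups overlapped and it did not pass the test (log2 fold change -0.05, SE 0.074, adjusted p = 0.580, edgeR).

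Of the sliding clamp and its loader, PCNA and RFC2 were called lower, RFC3 was called higher, and RFC4 and RFC5 did not pass the test. PCNA, the ring that holds polymerases on DNA, had 71.3, 79.2 and 83.4 FPKM in pectolinarigenin libraries, against 105, 98.3 and 105 FPKM in control libraries. All pectolinarigenin libraries were lower than all control libraries, and the log2 fold change was -0.43 (SE 0.066, adjusted p = 7.01e-05, edgeR). RFC3, a small subunit of the clamp loader, was the only one of the 31 genes called higher, with 20.9, 21.0 and 22.3 FPKM in pectolinarigenin libraries, against 19.1, 18.0 and 17.8 FPKM in control libraries. The increase was small, at 0.19 on the log2 scale (SE 0.063, adjusted p = 0.0207, edgeR), and the call was lost without control library 2 or 3 (adjusted p = 0.0821 and 0.0943). RFC4, a second small subunit, had 24.8, 26.2 and 27.0 FPKM in pectolinarigenin libraries, against 22.6, 22.9 and 23.3 FPKM in control libraries. Its groups did not overlap, yet the test missed the threshold (log2 fold change 0.14, SE 0.058, adjusted p = 0.0561, edgeR), and without pectolinarigenin library 1 the gene passed it (adjusted p = 0.0211). RFC2 had 13.3, 13.8 and 14.6 FPKM in pectolinarigenin libraries, against 14.8, 16.1 and 15.8 FPKM in control libraries. It was called lower with no overlap (log2 fold change -0.20, SE 0.074, adjusted p = 0.0385, edgeR), and lost the call without pectolinarigenin library 1 or 2 or control library 2 or 3 (adjusted p = 0.0908 to 0.146). RFC5 averaged 14.1 ± 0.86 FPKM in pectolinarigenin cells and 13.8 ± 0.32 FPKM in control cells (SD, n = 3 each) and did not pass the test (adjusted p = 0.929, edgeR).

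Within the clamp loader, 3 of the 4 small subunits had FPKM shares that did not overlap between the groups. These shares also add up to a fixed total, so they are not separate results. In FPKM itself, 25.4% of all tested genes lay entirely below and 33.5% entirely above the control libraries. The exact permutation test could again give no p-value below 0.1. The ratio of RFC3 to RFC2 FPKM was 1.57, 1.52 and 1.52 in pectolinarigenin libraries, against 1.29, 1.12 and 1.13 in control libraries. The share of RFC2 in the summed FPKM of RFC2 to RFC5 averaged 18.5% ± 0.38 in pectolinarigenin cells and 22.0% ± 0.84 in control cells (SD, n = 3 each; exact permutation p = 0.1, adjusted 0.111). The shares of RFC3 and RFC4 were higher in every pectolinarigenin library than in every control library with the same exact permutation p, and the share of RFC5 overlapped between the groups (exact permutation p = 0.3).

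The polymerase genes were expressed at low levels. POLA1, the catalytic subunit of the polymerase that primes each strand, had 1.71, 1.51 and 1.67 FPKM in pectolinarigenin libraries, against 1.94, 2.12 and 1.80 FPKM in control libraries. The groups did not overlap, and the gene was called lower (log2 fold change -0.30, SE 0.085, adjusted p = 0.00872, edgeR), a call that was lost without control library 2 (adjusted p = 0.0656). POLE, the catalytic subunit of the leading-strand polymerase, had 3.97, 3.62 and 3.50 FPKM in pectolinarigenin libraries, against 4, 3.87 and 4.13 FPKM in control libraries. In FPKM its groups overlapped through pectolinarigenin library 1. In TMM-scaled CPM they did not, with 65.4, 59.6 and 58.7 in pectolinarigenin libraries, against 68.3, 65.8 and 69.9 in control libraries. POLE missed the threshold (log2 fold change -0.15, SE 0.062, adjusted p = 0.0545, edgeR), passing it without pectolinarigenin library 1 (adjusted p = 0.0143).

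Of the genes that process the lagging strand, LIG1 was called lower and FEN1 did not pass the test. FEN1, the nuclease that removes primer flaps, had 60.9, 65.2 and 71.9 FPKM in pectolinarigenin libraries, against 61.5, 61.9 and 65.5 FPKM in control libraries. The groups overlapped, and FEN1 did not pass the test (log2 fold change 0.03, SE 0.066, adjusted p = 0.706, edgeR). LIG1, the ligase that joins the fragments, had 8.89, 9.14 and 9.10 FPKM in pectolinarigenin libraries, against 9.44, 10.0 and 9.79 FPKM in control libraries. It was called lower by the narrowest margin of the 31 genes (log2 fold change -0.14, SE 0.058, adjusted p = 0.0482, edgeR). The LIG1 call was lost on leaving out any library other than pectolinarigenin library 3 (adjusted p = 0.0564 to 0.177).

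All 3 genes of nucleotide supply fell. RRM2, the regulatory subunit of ribonucleotide reductase whose level rises in S phase, had 12.5, 11.9 and 14.02 FPKM in pectolinarigenin libraries, against 20.6, 21.5 and 21.2 FPKM in control libraries. RRM1, the large catalytic subunit, had 24.0, 24.0 and 24.4 FPKM in pectolinarigenin libraries, against 31.6, 33.4 and 32.0 FPKM in control libraries. The groups were well separated for both, with log2 fold changes of -0.76 for RRM2 (SE 0.066, adjusted p = 4.12e-07, edgeR) and -0.46 for RRM1 (SE 0.054, adjusted p = 6.87e-06). The ratio of RRM1 to RRM2 FPKM averaged 1.89 ± 0.14 in pectolinarigenin cells and 1.53 ± 0.023 in control cells (SD, n = 3 each), with no overlap. TYMS, thymidylate synthase, had 29.5, 31.2 and 33.0 FPKM in pectolinarigenin libraries, against 35.3, 36.5 and 36.9 FPKM in control libraries. Its decrease was smaller, at -0.25 on the log2 scale (SE 0.060, adjusted p = 0.00305, edgeR), again without overlap.

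Among the regulators of S-phase entry, E2F2 showed the largest fall of the 31 genes. E2F2, an activator of replication genes (chr1:23506430-23531220), had 1.48, 1.60 and 1.85 FPKM in pectolinarigenin libraries, against 3.18, 3.44 and 3.29 FPKM in control libraries. E2F1, the best known activator of the family, had 15.6, 15.9 and 16.5 FPKM in pectolinarigenin libraries, against 19.8, 19.5 and 19.0 FPKM in control libraries. Neither gene's groups overlapped, and the log2 fold changes were -1.04 for E2F2 (0.488-fold, SE 0.11, adjusted p = 1.96e-06, edgeR) and -0.32 for E2F1 (SE 0.063, adjusted p = 0.000698). The promoter windows of both hold an E2F form, as printed above. The ratio of E2F2 to E2F1 FPKM averaged 0.103 ± 0.0087 in pectolinarigenin cells and 0.170 ± 0.0086 in control cells (SD, n = 3 each). The cyclin E genes, whose products activate CDK2, differed in their calls. CCNE2 had 1.26, 1.28 and 1.25 FPKM in pectolinarigenin libraries, against 1.67, 2.05 and 1.61 FPKM in control libraries, and was lower without overlap (log2 fold change -0.53, SE 0.14, adjusted p = 0.00443, edgeR). CCNE1 had 7.37, 6.41 and 8.64 FPKM in pectolinarigenin libraries, against 7.33, 7.47 and 7.92 FPKM in control libraries. Its pectolinarigenin libraries spread to both sides of the control libraries, and it did not pass the test (log2 fold change -0.05, SE 0.11, adjusted p = 0.736, edgeR). Whether the changes of CCNE1 and CCNE2 differ from each other was not tested.

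The rest of the E2F family was examined beside E2F1 and E2F2. E2F8, a repressor of the family that is itself an E2F target, had 3.31, 4.02 and 3.70 FPKM in pectolinarigenin libraries, against 8.24, 8.26 and 7.80 FPKM in control libraries. E2F7, the related repressor, had 1.51, 1.01 and 1.53 FPKM in pectolinarigenin libraries, against 2.36, 2.19 and 2.31 FPKM in control libraries. Both fell, with log2 fold changes of -1.18 (SE 0.086) and -0.79 (SE 0.14), and their groups did not overlap. E2F4, which binds these promoters mainly in resting cells, had 11.1, 10.9 and 12.9 FPKM in pectolinarigenin libraries, against 6.30, 8.08 and 7.99 FPKM in control libraries. E2F4 rose, with a log2 fold change of 0.61 (SE 0.10), as did the repressor E2F6 (0.50, SE 0.083) and E2F5 (0.37, SE 0.081). E2F3, the third activator, was also called higher (0.22, SE 0.067), a call lost in the log2 fold change of E2F3 without control library 2 (adjusted p = 0.0638, edgeR). Thus 4 of the 8 E2F genes were called lower and 4 higher, and per length E2F1 was the highest of the 8 in both groups.

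**Figure D3:**
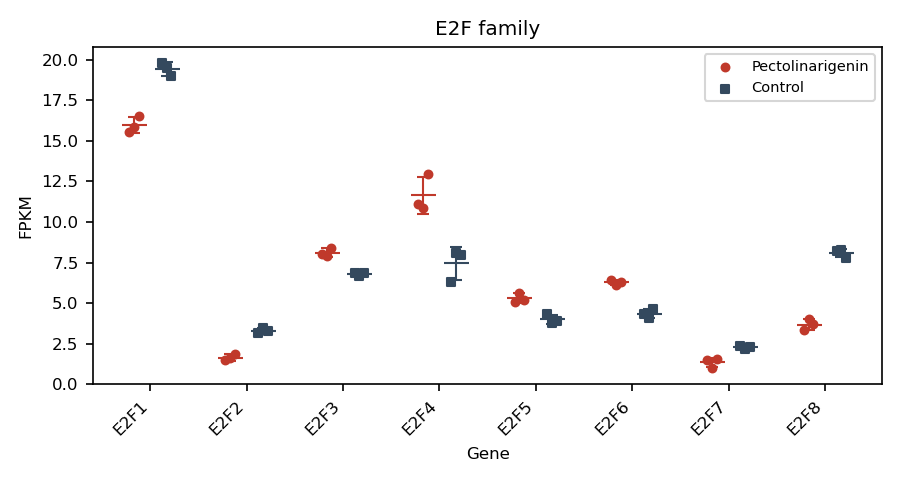
Deposited FPKM of E2F1 to E2F8; points are libraries, circles pectolinarigenin and squares control, and the bars give the mean ± SD of 3 libraries. E2F1, E2F2, E2F7 and E2F8 lie lower in pectolinarigenin cells (for E2F8 3.68 ± 0.36 and 8.10 ± 0.26 FPKM in pectolinarigenin and control cells), and E2F3 to E2F6 lie higher.

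Of the genes that duplicate chromatin behind the fork, UHRF1 fell and the CAF-1 subunits did not pass the test. UHRF1, which recruits the maintenance methyltransferase to newly copied DNA, had 5.97, 5.68 and 5.84 FPKM in pectolinarigenin libraries, against 9.63, 9.59 and 9.47 FPKM in control libraries. The libraries of each group were close together and the groups far apart, at -0.75 on the log2 scale (SE 0.065, adjusted p = 4.04e-07, edgeR). CHAF1A, the large subunit of the histone chaperone CAF-1, had 22.0, 20.4 and 20.9 FPKM in pectolinarigenin libraries, against 18.3, 19.7 and 20.1 FPKM in control libraries. CHAF1B, its middle subunit, had 3.30, 3.25 and 3.38 FPKM in pectolinarigenin libraries, against 3.24, 3.29 and 3.87 FPKM in control libraries. Neither passed the test (log2 fold changes 0.09, adjusted p = 0.234, and -0.10, adjusted p = 0.397, edgeR). For CHAF1A all 3 pectolinarigenin libraries were slightly above the control libraries in FPKM only. In TMM-scaled CPM its groups overlapped, with 93.5, 86.4 and 90.5 in pectolinarigenin libraries, against 80.3, 86.6 and 87.7 in control libraries.

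Several of these genes share sequence with a neighbour on the opposite strand, and the strand setting of the counting is not given in the sources used here, so reads of such stretches cannot be told apart. By GENCODE 29, ENOSF1 covered 39.1% of the exon length of TYMS had about as many counts (100.3% of those of TYMS), and had a log2 fold change of 0.06 without passing the test. INTS8 covered 37.0% of the exon length of CCNE2, had 784% as many counts, and did not pass either (-0.03). How much of the TYMS and CCNE2 counts came from these neighbours was not tested. AP4M1 covered 8.94% of MCM7 and had 2.86% as many counts. WSB2, which was lower (-0.21), covered 5.72% of RFC5 and had 200.3% as many counts. TMEM258, which did not pass the test, covered 6.70% of FEN1 and had 69.9% as many counts. An antisense transcript over 22.7% of MCM2 had 7 to 16 counts per library. Pseudogenes of the replication genes had at most 6 counts in any library.

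In 9 pairs, a replication gene and a protein-coding neighbour start on opposite strands within 1000 bases of each other. PRKDC, the catalytic subunit of DNA-dependent protein kinase, starts 2 bases from MCM4 and had 34.6, 27.9 and 25.8 FPKM in pectolinarigenin libraries, against 47.4, 46.2 and 45.1 FPKM in control libraries. CDS2, an enzyme of phospholipid synthesis, starts 160 bases from PCNA and had 8.11, 7.84 and 7.15 FPKM in pectolinarigenin libraries, against 11.3, 10.5 and 11.2 FPKM in control libraries. These neighbours fell with their partners, without overlap, at log2 fold changes of -0.69 (SE 0.083, adjusted p = 8.16e-06, edgeR) and -0.55 (SE 0.060, adjusted p = 2.99e-06). ZSWIM9, 89 bases from LIG1, was higher (0.34, SE 0.087, adjusted p = 0.00488, edgeR) where LIG1 was called lower. TPRA1 (44 bases from MCM2), UFD1 (244 bases from CDC45) and NDUFAF6 (911 bases from CCNE2) did not pass the test beside partners that fell. The neighbours of MCM7, FEN1 and POLE did not pass the test, nor did these 3 genes.

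**Figure D4:**
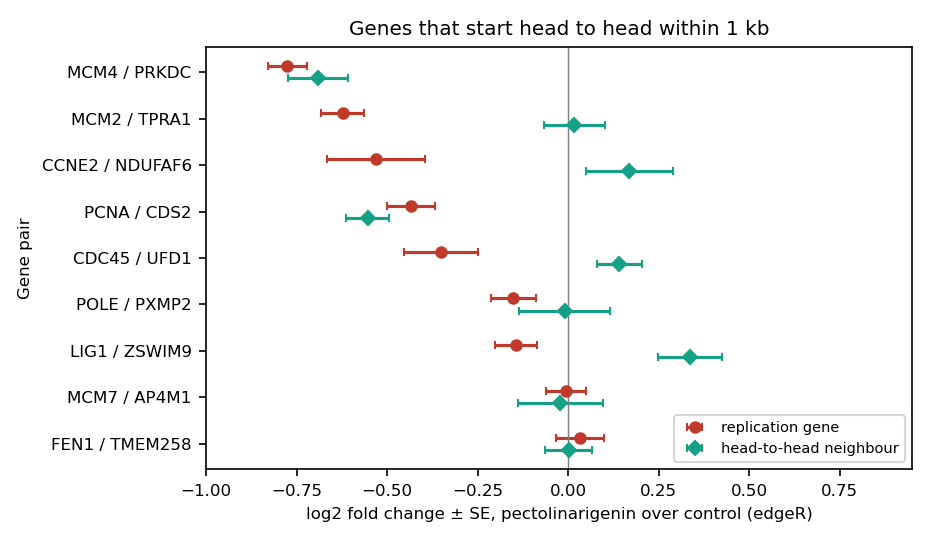
Log2 fold change ± SE (edgeR, pectolinarigenin over control) of 9 replication genes (circles) and of the protein-coding gene that starts on the opposite strand within 1000 bases (diamonds). MCM4 and PRKDC (-0.78 and -0.69) and PCNA and CDS2 (-0.43 and -0.55) lie on the same side of 0, while LIG1 and ZSWIM9 (-0.14 and 0.34) lie on opposite sides.

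Other genes of the same processes were counted in 6 further lists of 90 genes, of which 88 were tested. Of these 33 were called lower, 20 higher and 35 did not pass, with a median log2 fold change of -0.08. The shares were 37.5% lower and 22.7% higher, against 25.3% of all tested genes in each direction, and the counts of the single lists below are to be set against the same 25.3%. Among the 16 genes of origin recognition, licensing control and firing, 4 were lower and 6 higher (median 0.12). GINS4, another GINS subunit, and TICRR, a firing factor, were lower (-0.48 and -0.46), and the origin recognition subunits ORC6 and ORC4 were higher (0.33 and 0.30). Of 18 tested genes for other polymerase subunits, RPA and lagging-strand factors, 9 were lower and 2 higher (median -0.18). TOP2A, which untangles copied DNA, and the polymerase delta subunit POLD3 were lower (-0.92 and -0.42), and TOP1, the other main topoisomerase, and the ribonuclease H2 subunit RNASEH2C were higher (0.39 and 0.63).

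Fork protection and alternative clamp loaders gave 4 lower (30.8%) and 3 higher (23.1%) of 13 genes (median -0.03), shares near those of all tested genes. ATAD5, which unloads PCNA, and the checkpoint adaptor CLSPN were lower (-0.62 and -0.87), and RAD17, which loads the checkpoint clamp, was higher (0.26). TIMELESS, a fork protection factor, was also called higher (0.16), but the log2 fold change of TIMELESS passed the threshold in leave-one-out fits only without pectolinarigenin library 2 or 3 (adjusted p = 0.0529 to 0.119 without any other library, edgeR). Of 10 other genes of nucleotide supply 3 were lower and 1 higher (median -0.04). The thymidine kinase TK1 was lower (-0.61), and the nucleoside diphosphate kinase NME1 was higher (0.49). Besides the E2F genes, the list of E2F, RB and G1/S kinases, with 8 of 18 lower and 6 higher (median -0.10), named CDK2, the partner of cyclin E, which was lower (-0.70, SE 0.059). In the same list the CDK inhibitor CDKN1A was lower (-0.71) and CDKN1B higher (0.26); both were picked out after their values were seen. Chromatin assembly and maintenance methylation gave 5 lower and 2 higher of 13 (median -0.11). The histone chaperone ASF1B and the remodeller HELLS were lower (-0.62 and -0.51), and SLBP, which binds histone mRNA, and the chaperone ASF1A were higher (0.22 and 0.24). The call in the log2 fold change of ASF1A was lost without control library 2 (adjusted p = 0.0765, edgeR).

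**Figure D5:**
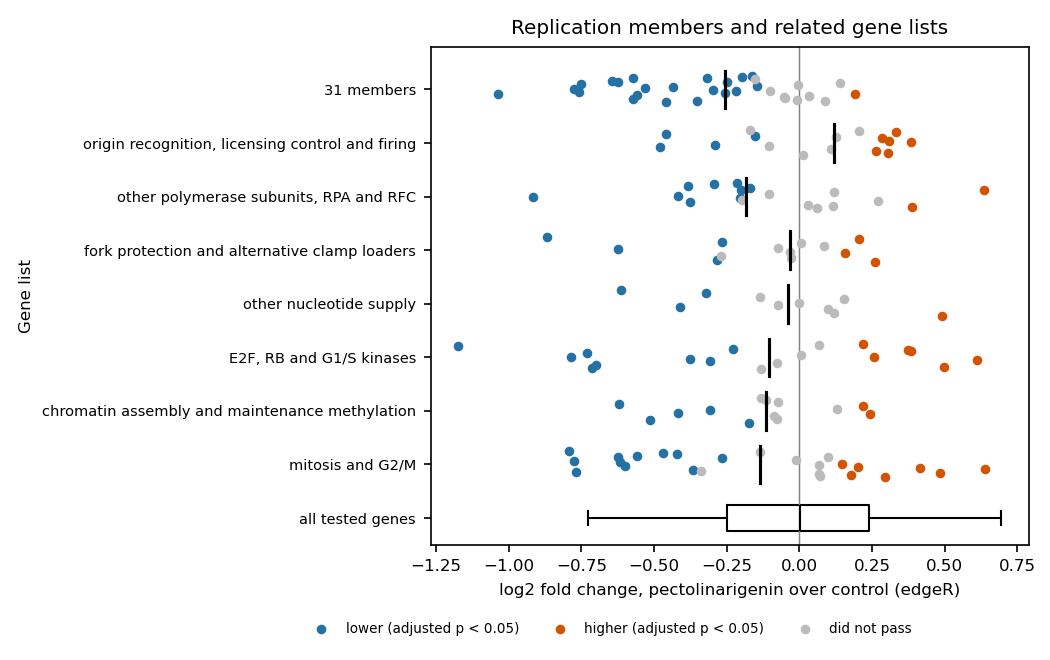
Log2 fold change (edgeR, pectolinarigenin over control) of the 31 replication genes and of the tested genes of 7 related lists; points are genes coloured by call, short vertical lines are list medians, and the box gives the quartiles of all 12829 tested genes with whiskers at the 5th and 95th percentiles. The median is -0.25 for the 31 genes, 0.12 for origin recognition, licensing control and firing, and between -0.18 and -0.03 for the other lists.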

How the data were processed

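The authors deposited 1 table with raw read counts and FPKM values (fragments scaled to gene length and library total) per gene for 6 libraries. The submitters' processing notes name cutadapt 1.9.1, HISAT2 2.0.1, HTSeq 0.6.1 and GRCh38. What each of them did, which annotation release and strand setting applied, and how multi-mapping reads were handled is not given in the sources used here. Deposited counts were analysed in edgeR 4.0.16 (R 4.3.3) by its quasi-likelihood test, with TMM scaling, group as the only term and 2-sided p-values. Genes with a mean FPKM of at least 1 were tested (12829 genes), and p-values were adjusted by Benjamini-Hochberg over all of them. FPKM values were printed as the authors deposited them. Standard errors came from the F statistic, and the biological coefficient of variation was 0.0614. No 2 libraries agreed within sampling noise (chi-square per degree of freedom 1.53 to 11.1). The procedure was tested on simulated data. Alternatives used DESeq2 1.42.0 and limma 3.58.1, other scalings and filters, a replicate block and leaving out each library. Named genes were all 31 members, and from each other list the 2 genes with the smallest p in each direction among those called; any other gene was named after its values were seen. A gene that the rule names is not reported here. The members and lists were chosen with earlier results of these data known. Exon overlaps and start distances came from GENCODE 29, and promoter sequences from RefSeq (GRCh38.p14).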

Additional observations from a re-analysis of the deposited data

How the results depend on the processing

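Over 17 alternatives the number of the 31 genes called lower ranged from 16 to 22 (21 as reported), and no call among the 31 reversed. It was 18 without TMM factors, 18 with DESeq2, 18 and 16 with limma on log2(FPKM + 1) and log2(FPKM + 0.1), and 16 to 21 when 1 library was left out. The number called higher was 2 without TMM factors, 2 with limma on log2(FPKM + 1), 2 with limma on log2(FPKM + 0.1) and 2 with filterByExpr, since RFC4 joined RFC3, and ranged from 0 to 2 when 1 library was left out. It was 0 without control library 2 or 3 and 2 without pectolinarigenin library 1. The calls that were lost most often were LIG1 (12 of 17 alternatives), CDC6 (11) and RFC2 (9), while CDT1 and POLA1 lost theirs in 3 each and RFC3 in 2. The sign of MCM7 changed in 7 and that of RFC5 in 8 of 17, both without a call. Of all genes, 6486 were called, 5292 to 6517 when 1 library was left out, and 4098 when the mean FPKM had to reach 5, where 7144 genes and 26 of the 31 were tested. With the replicate number as a block, 6540 genes were called and 20 of the 31 were lower, since LIG1 lost its call (adjusted p = 0.0639), and no other call among the 31 changed. The numbers did not pair the samples by the check used, as same-numbered libraries had deviations correlated at 0.0215, 0.00886 and 0.0262, although each library correlated best with its own number, which is a hint from the data and not from the design. Alternatives for genes outside the 31 were chosen after seeing the data. At this depth 3 counts correspond to 0.148 to 0.198 CPM, and members with few counts had larger errors, with an SE of 0.14 for CCNE2 (89 to 168 counts per library) and 0.052 for MCM3.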

Other observations

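Of 25 genes of mitosis and G2/M, which act after replication, 11 were called lower (44%) and 7 higher (28%), against 25.3% of all tested genes in each direction (median log2 fold change -0.14, edgeR). The higher share is near that of all tested genes. Of the genes called higher, AURKA lost its call in 5 of 17 alternatives, BIRC5 in 4 of 17 and PRC1 in 7 of 16. CDK1, the main mitotic kinase, had 28.7, 28.5 and 31.2 FPKM in pectolinarigenin libraries, against 52.0, 47.4 and 50.1 FPKM in control libraries. UBE2C, the ubiquitin-conjugating enzyme of the anaphase-promoting complex, had 45.9, 47.3 and 48.2 FPKM in pectolinarigenin libraries, against 71.0, 70.4 and 70.8 FPKM in control libraries. Both were lower without overlap (-0.79, SE 0.062, and -0.62, SE 0.056). CDC20, an activator of the same complex, had 74.4, 76.1 and 70.9 FPKM in pectolinarigenin libraries, against 43.5, 46.0 and 49.0 FPKM in control libraries. NEK2, a centrosomal kinase, averaged 28.4 ± 1.1 FPKM in pectolinarigenin cells and 19.8 ± 0.94 FPKM in control cells (SD, n = 3 each). Both were higher without overlap (0.64, SE 0.058, and 0.48, SE 0.059).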
